A study of Mus musculus with 24 samples.

Results

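Parental melanoma cells and parental leukemia cells of the mouse were compared on 7 of the 24 arrays of the series, 3 titled B16-M and 4 titled M0-p20. B16-M is the parental line B16F1-GFP-M, melanoma cells that by their name carry GFP and were grown in DMEM with fetal bovine serum. M0-p20 is labelled as leukemia cells, and since the study holds a single leukemia model it was taken to be the parental myeloid line DA1-3b, which the titles do not name. The growth protocol names melanoma lines alone, also on these arrays, so that no medium, passage scheme or treatment is known for M0-p20, each line stands for its tumour type alone, and culture conditions and tumour type cannot be told apart. The other 17 arrays hold lines recovered from dormancy in mice, namely B16-D (4), B16-D-733 (4), B16-D-735 (3) and B16-D-739 (3) from the melanoma and J365-p20 (3) from the leukemia. A pair of the B16-D-733 arrays carry the same number in their titles, and whether they hold the same sample was not tested.

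Melanoma cells descend from melanocytes, pigment cells of the neural crest. The transcription factors Mitf, Sox10 and Pax3 hold that identity, and Mitf switches on enzymes that turn tyrosine into melanin inside a specialised lysosome, the melanosome. Myeloid leukemia cells descend from blood progenitors, which carry the CD45 phosphatase (Ptprc) at their surface, use blood transcription factors such as Gata1, Gata2, Lyl1 and Myb, and depend on cytokine receptors that signal through Jak2 and Stat5. A level is given here as the log2 of the intensity of a gene's brightest probe relative to the 75th percentile of its array, so that a gene as bright as that percentile stands at 0 and each unit is a doubling. A gene was counted as detected in a line when that probe was well above background on all arrays of the line, by the call of the scanner software, and as not detected when it was on none. Levels of different genes come from different probes and were not compared with each other.

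Between 49.5% and 54.5% of spots were well above background on the 7 arrays and no spot was saturated, and precision is set by the few arrays per line. Of 24390 genes and transcripts tested with limma, 12757 differed between the lines at an adjusted p under 0.05 (52.3%), 5523 of them higher in B16-M (22.6%) and 7234 lower (29.7%), where 14069 had an unadjusted p under 0.05. The median difference over all genes tested was -0.20 (B16-M minus M0-p20, log2), and the median size of a difference was 0.78. Of 22907 gene symbols on the array, 10964 were detected in both lines (47.9%), 1190 in B16-M alone (5.19%), 845 in M0-p20 alone (3.69%) and 7329 in neither. With 52.3% of all genes called, a call on a single gene says little, and sizes and detection are given first below. Genes that were bright in a single line entered the test through that line and had to differ, so that counts of called genes describe the lists and support nothing.

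The markers of the cell types separated the arrays. *Mitf*, the master regulator of pigment cells, stood at 6.02, 5.84 and 6.02 on the B16-M arrays and at 1.23, 0.73, 0.35 and 0.35 on the M0-p20 arrays. It was 39.3-fold higher in B16-M (log2 difference 5.30 ± 0.24, SE, limma adjusted p = 8.97e-07), and it was above background on every M0-p20 array as well. *Tyr*, the enzyme of the first step of melanin synthesis, gave 3.40, 3.35 and 3.40 in B16-M against -3.78, -3.70, -3.39 and -3.41 in M0-p20, a 124-fold difference (6.95 ± 0.16, limma adjusted p = 2.09e-08). *Dct*, which acts later in the same pathway, gave 6.08, 6.11 and 6.08 against -1.98, -3.93, -2.27 and -2.40, with M0-p20 replicate 1 lowest (8.74 ± 0.44, 426-fold, limma adjusted p = 1.64e-06). The second probe of *Dct* differed by 15.47. *Ptprc* was not above background on any B16-M array (-6.98, -6.98 and -7.15) and stood at 2.22, 2.98, 2.76 and 2.68 in M0-p20, at least 189-fold lower in B16-M. Here and below a bound sets the mean of the bright line against the lowest signal that counted as well above background on the arrays of the other line. *Csf2rb*, the shared signalling chain of the receptors for IL-3, IL-5 and GM-CSF, gave -6.79, -6.17 and -6.98 against 5.65, 6.08, 5.56 and 5.61 on its brightest probe. Of its 3 probes another was above background on all B16-M arrays, and the 3 probes differed by -12.37 to -3.60. The arrays of the lines did not overlap for any of these 5 markers. These markers are known for the lines compared, so their values check the labels and were given no weight as a finding. Nothing in the labels says that the arrays of a line came from separate cultures, so p-values measure the spread between these arrays, which may be technical.

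**Figure D1:**
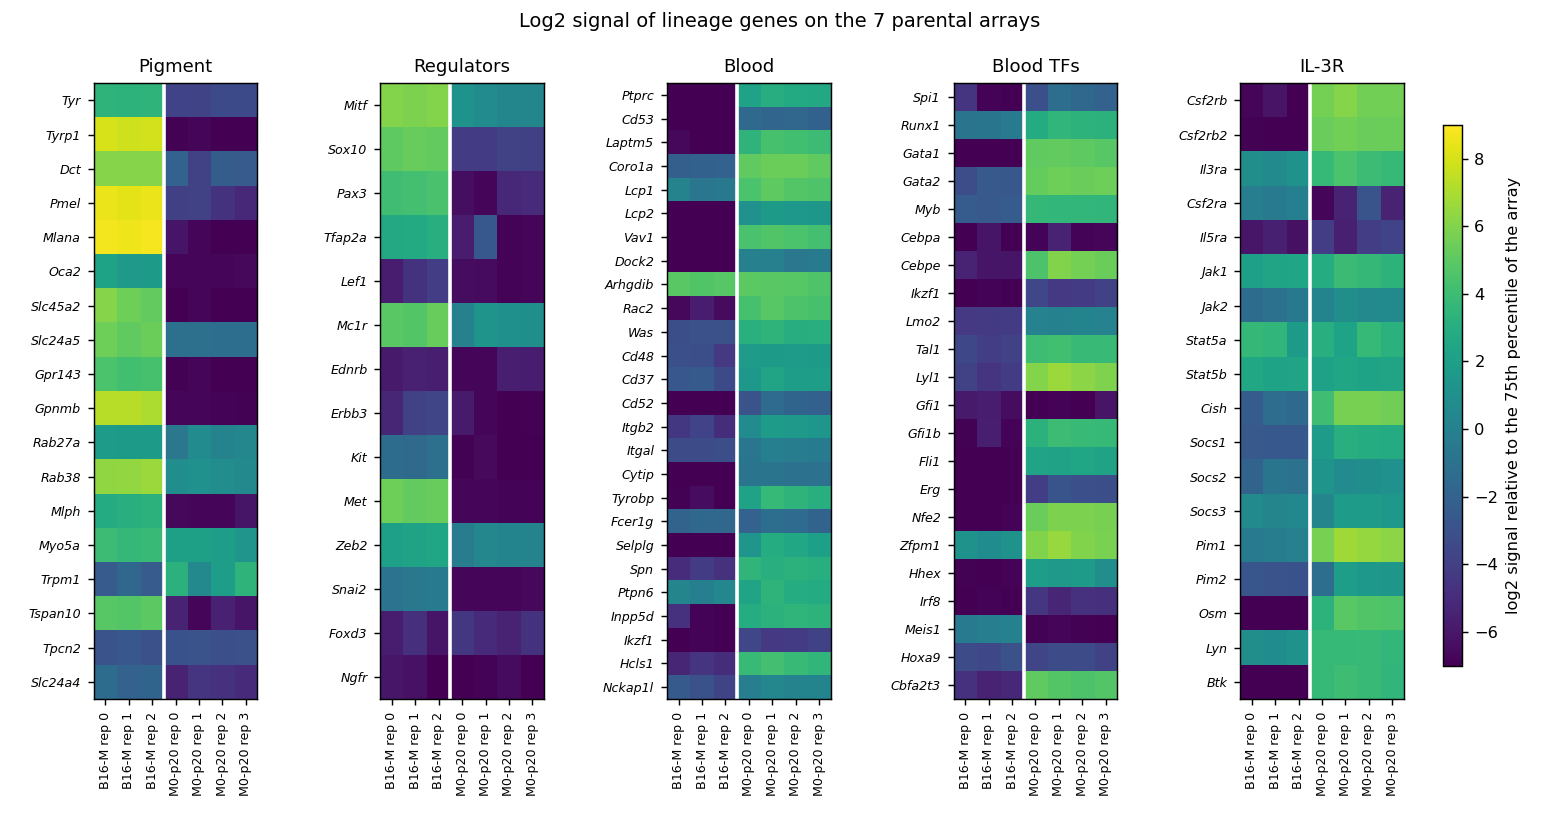
Level of each gene of 5 lineage lists on the 7 parental arrays, as log2 signal relative to the 75th percentile of the array (colour scale), with 1 column per array, 1 line per gene and a divide between the 3 B16-M arrays on the left and the 4 M0-p20 arrays on the right of each panel. The pigment and regulator panels are bright on the left and the blood panels on the right, with exceptions such as *Meis1*, *Csf2ra* and the brightest probe of *Trpm1* of opposite direction and *Arhgdib*, *Stat5a* and *Stat5b* at about the same level in both lines.

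Of 18 genes of pigment enzymes and melanosome proteins, 16 were higher in B16-M, *Trpm1* was called lower and *Tpcn2* had no call, with a median difference of 8.68 (7.34 with genes at their bound) against -0.20 over all genes tested. Over all genes tested 22.6% were higher and 29.7% lower in B16-M, and 5.19% of all gene symbols were detected there alone. *Mlana*, a melanosomal protein known as a melanoma antigen, stood at 8.69, 8.60 and 8.76 in B16-M and was not above background on any M0-p20 array (-6.11, -6.81, -6.94 and -7.0), at least 10450-fold higher in B16-M. *Tyrp1*, the third melanogenic enzyme, gave 8.02, 7.86 and 7.92 and was likewise at background in M0-p20 (-6.88, -6.73, -6.94 and -6.97), at least 6194-fold higher. Together with *Gpnmb* (at least 3707-fold), *Slc45a2* (at least 1211-fold), *Tspan10*, *Gpr143* (at least 503-fold), *Mlph* (at least 211-fold), *Oca2* (at least 93.4-fold) and *Slc24a4* (at least 7.74-fold), 9 of the 18 genes were detected in B16-M alone. *Pmel*, which forms the fibrils that melanin is laid on, differed by 12.87 ± 0.32 and was above background on 2 of 4 M0-p20 arrays. The genes that move melanosomes along actin were nearer: *Rab27a* and its motor *Myo5a* were 3.07-fold and 3.81-fold higher in B16-M and detected in both lines (without M0-p20 replicate 2 another probe of *Myo5a* was brightest, and its log2 difference was 3.14 in place of 1.93), whereas their linker *Mlph* was detected in B16-M alone. *Rab38*, which sorts enzymes to melanosomes, was 49.5-fold higher. *Tpcn2*, an ion channel of endolysosomes and melanosomes, stood between -3.06 and -2.69 in B16-M and between -3.10 and -2.89 in M0-p20, so that the lines overlapped (0.12, 95% interval -0.24 to 0.48).

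*Trpm1*, a cation channel named for its loss in melanoma, went the other way on its brightest probe, at -2.42, -1.67 and -2.42 in B16-M and 3.31, 0.52, 1.93 and 3.42 in M0-p20 (-4.47 ± 0.70, limma adjusted p = 0.00113). Its 6 bright probes differed by -4.47 to 10.30, and their mean was 4.64 higher in B16-M, so that no direction is given for the gene.

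The regulators of pigment cells were also split by line. Of 14 on the array, 9 were tested and all 9 were higher in B16-M (median 6.13, or 5.30 with genes at their bound). Over all genes tested 22.6% were higher. *Sox10*, a neural crest transcription factor that activates *Mitf*, stood at 5.05, 5.26 and 5.16 in B16-M against -4.16, -4.16, -3.88 and -3.94 in M0-p20, 585-fold apart (9.19 ± 0.15, limma adjusted p = 6e-09). *Pax3*, its partner, was detected in B16-M alone (at least 484-fold), as were the receptors *Met* (at least 1016-fold) and *Kit* (at least 10.2-fold) and the transcription factor *Snai2* (at least 16.6-fold). *Mc1r*, the receptor for melanocyte-stimulating hormone, was detected in both lines and 18.1-fold higher in B16-M, and the repressor *Zeb2* 4.21-fold. *Tfap2a* differed by 8.30 ± 0.98, with 1 of 4 M0-p20 arrays above background (-2.60 on replicate 1, -6.87 to -5.77 on the others, and a difference of 9.27 without that replicate). *Ednrb* and *Ngfr* were not above background on any array of either line, and *Foxd3*, *Lef1* and *Erbb3* were above background on too few arrays to be tested. *Kit*, also known from blood progenitors and mast cells, thus gave -1.36, -1.47 and -1.10 in the melanoma line and -7.02 to -6.57 in the leukemia line.

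The bases before the start sites of pigment genes were searched for CATGTG on either strand, a form of the E-box CANNTG that Mitf is known to bind. Of the 18 genes 13 were in the RefSeq promoter table for GRCm38.p6, and 7 of them (53.8%) held it within 250 bases of the start, against 12.2% of all 27025 promoters and 9.0% of the 933 promoters of genes detected in B16-M alone. Genes detected in M0-p20 alone held CATGTG more often, in 14.1% of 666 promoters, so that it did not mark the genes of the melanoma line at large. CACGTG, another form of the E-box, was in 2 of the 13 (15.4%, against 6.05% of all promoters) and AGATAA, a form of the sites of GATA factors, in 4 (30.8%, against 10.3%), and none of the letters searched contains another. The 3 melanogenic enzymes are shown because they are markers of the line and each holds it. Capitals mark CATGTG or its reverse complement CACATG, and each sequence runs 5′ to 3′ on the strand of the gene and ends at the base before the start.
Tyr, chr7:87493513-87493762, minus strand: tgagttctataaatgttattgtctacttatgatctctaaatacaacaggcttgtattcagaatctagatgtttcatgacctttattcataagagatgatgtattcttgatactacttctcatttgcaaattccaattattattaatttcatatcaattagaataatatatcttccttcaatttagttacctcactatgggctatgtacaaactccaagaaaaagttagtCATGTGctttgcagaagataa
Tyrp1, chr4:80833963-80834212, plus strand: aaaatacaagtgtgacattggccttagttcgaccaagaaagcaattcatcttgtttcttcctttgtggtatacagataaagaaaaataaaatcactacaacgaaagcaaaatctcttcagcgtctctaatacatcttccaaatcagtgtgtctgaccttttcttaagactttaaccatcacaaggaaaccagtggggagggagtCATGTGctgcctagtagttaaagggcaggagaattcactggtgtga
Dct, chr14:118052247-118052496, minus strand: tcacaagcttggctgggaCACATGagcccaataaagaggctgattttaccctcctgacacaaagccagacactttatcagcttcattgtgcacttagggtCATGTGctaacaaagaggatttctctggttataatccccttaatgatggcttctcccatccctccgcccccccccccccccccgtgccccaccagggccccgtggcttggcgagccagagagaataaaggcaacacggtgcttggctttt
The match lies 21 bases before the start of *Tyr* and 46 before that of *Tyrp1*, and those of *Dct* lie 232 and 150 bases before its start. A match describes the letters of these windows and was not tested as a binding site.

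The leukemia line carried the blood programme. Of 26 genes used across blood cells, 24 were lower in B16-M and *Arhgdib* and *Fcer1g* had no call (median -6.15, or -5.54 with genes at their bound), 13 were detected in M0-p20 alone and none in B16-M alone. Over all genes tested 29.7% were lower in B16-M, and 3.69% of all gene symbols were detected in M0-p20 alone. *Vav1*, an exchange factor for small GTPases in blood cells, stood at 4.40, 4.65, 4.47 and 4.24 in M0-p20 and at -7.05, -6.99 and -7.15 in B16-M, at least 650-fold lower there. *Rac2*, the Rac GTPase of blood cells, was at least 678-fold lower, the lysosomal protein *Laptm5* at least 465-fold, the adaptor *Tyrobp* at least 259-fold and the selectin ligand *Selplg* at least 137-fold. Of 10 blood genes detected in both lines, 8 were lower in B16-M, among them *Coro1a*, a coronin of leukocytes (159-fold lower), *Was*, the Wiskott-Aldrich syndrome protein (74.1-fold lower), *Cd48* (39.3-fold lower) and *Ptpn6*, the phosphatase SHP-1 (6.4-fold lower). *Arhgdib*, an inhibitor of small GTPases used in blood cells, stood at 4.92, 4.66 and 4.82 in B16-M and 4.99, 4.90, 4.86 and 4.59 in M0-p20. The lines overlapped for *Arhgdib* (-0.04, 95% interval -0.41 to 0.34) and for *Fcer1g*, the shared chain of Fc receptors (-0.11, -0.65 to 0.43). These are cell lines measured in bulk, where fewer cells of a type and less RNA per cell cannot be told apart.

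GAGGAAG, a form of the sites that PU.1 is known to bind, was searched on either strand in the same window. It was present in 5 of 19 promoters of the blood list (26.3%), against 10.4% of all promoters, 15.0% of the 666 promoters of genes detected in M0-p20 alone and 10.6% of the 8839 promoters of genes detected in both lines. It was also in 2 of the 13 pigment promoters (15.4%). AGATAA, the form of GATA sites searched above, was in 1 of the 19 blood promoters (5.26%, against 10.3% of all promoters), and CATGTG was in 3 (15.8%, against 12.2%). A pair of signalling genes that were at background in B16-M is shown, with the match in capitals.
Vav1, chr17:57278850-57279099, plus strand: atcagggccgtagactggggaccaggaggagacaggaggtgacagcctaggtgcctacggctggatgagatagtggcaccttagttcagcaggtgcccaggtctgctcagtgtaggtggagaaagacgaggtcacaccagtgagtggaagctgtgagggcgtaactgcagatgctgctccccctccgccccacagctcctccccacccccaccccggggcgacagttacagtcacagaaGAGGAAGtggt
Inpp5d, chr1:87620062-87620311, plus strand: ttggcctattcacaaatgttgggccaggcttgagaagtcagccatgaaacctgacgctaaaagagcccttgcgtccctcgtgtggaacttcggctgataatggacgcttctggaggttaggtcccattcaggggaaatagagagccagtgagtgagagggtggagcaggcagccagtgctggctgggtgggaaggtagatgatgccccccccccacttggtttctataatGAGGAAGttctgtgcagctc
The match lies 11 bases before the start of *Vav1* and 20 before that of *Inpp5d*, the lipid phosphatase SHIP1, which was at least 276-fold lower in B16-M. In the promoters of *Ptprc*, *Coro1a* and *Was* the letters were not found.

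Among transcription factors of blood, 17 of 19 tested were lower in B16-M (22 on the array, median -7.80, or -6.48 with genes at their bound). Over all genes tested 29.7% were lower. *Gata1*, which drives red cell, platelet and mast cell fates, stood at 5.07, 5.15, 5.06 and 4.83 in M0-p20 and was not above background in B16-M (-6.97, -6.96 and -7.0), at least 976-fold lower. *Lyl1*, a relative of the stem cell factor Tal1, was detected in both lines, with 6.05, 6.58, 6.20 and 5.88 in M0-p20 against -3.91, -4.55 and -4.13 (-10.37 ± 0.23, limma adjusted p = 1.83e-08). It had the largest fitted difference of the genes ranked below that were detected in both lines and lower in B16-M. *Nfe2* (at least 1547-fold), *Cebpe* (at least 1262-fold) and *Gfi1b* (at least 380-fold) were detected in M0-p20 alone. *Gata2* (-8.16 ± 0.21), *Tal1* (-7.80 ± 0.19), *Myb* (-5.97 ± 0.14), *Zfpm1*, the cofactor of Gata1 (-4.97 ± 0.23), and *Runx1* (-3.94 ± 0.20) were detected in both lines and lower in B16-M. The arrays of the lines did not overlap for any of these factors. The share of all genes without overlap was not counted, and 52.3% of all genes tested were called.

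Single factors departed from this pattern. *Spi1*, which encodes PU.1, was above background on all M0-p20 arrays but at -3.09, -1.23, -1.61 and -1.96, and on 1 of 3 B16-M arrays (-4.18 ± 0.69, limma adjusted p = 0.0015, and -4.98 without B16-M replicate 0, the array above background). *Cebpa*, a factor of the granulocyte line, was not above background on any of the 7 arrays, and neither was *Gfi1*. *Meis1*, known from stem cells and leukemias, was detected in B16-M alone (-0.43, -0.18 and 0.05 against -7.0 to -6.81), at least 22.3-fold higher in the melanoma line.

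Markers of mature blood cells were above background in part. Of 22 genes of granulocytes and monocytes, 14 were tested, 10 were lower in B16-M and none was higher (median -3.12, or -2.44 with genes at their bound), while without B16-M replicate 2 1 was called higher. Over all genes tested 29.7% were lower and 22.6% higher in B16-M. *Ncf4* and *Adgre1* were detected in M0-p20 alone (at least 557-fold and 38.6-fold), as were *Mpo* and *Prtn3*, enzymes of the early granules (at least 78.1-fold and 22.4-fold). *S100a8*, *Ltf*, *Cybb* and *Cd33* were not above background on any array. *Csf3r*, the receptor for G-CSF, was bright in both lines, at 5.69, 6.06 and 5.91 in B16-M and 6.79, 5.81, 6.17 and 6.86 in M0-p20, so that the lines overlapped (-0.52 ± 0.29, limma adjusted p = 0.166). Without M0-p20 replicate 1 the difference of *Csf3r* was -0.72 and passed the threshold. *Csf1r*, the receptor for M-CSF, overlapped as well (-0.21, 95% interval -1.0 to 0.57).

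Genes of other blood lines were present in part, and their counts stand beside 29.7% lower and 22.6% higher in B16-M over all genes tested. Of 12 red cell and platelet genes on the array 7 were tested and 6 were lower in B16-M, none was higher (1 without B16-M replicate 2), and the lower ones included *Itga2b*, a platelet integrin chain (at least 234-fold), the erythropoietin receptor *Epor* (-4.39 ± 0.16) and *Gp9* (-5.68 ± 0.31), while *Alas2* and *Slc4a1* of late red cells were not above background anywhere. Of 11 mast cell genes 6 were tested and 5 were lower in B16-M, with *Cma1*, a chymase, at 1.73, 0.84, 0.49 and 0.36 in M0-p20 and at background in B16-M (at least 54.1-fold). *Tpsb2* had no call (0.12 ± 0.31). *Fcer1a* was above background on 2 of 4 M0-p20 arrays, *Cpa3*, *Mcpt8* and *Il1rl1* on 1 each, and *Mcpt4* on none. Of 16 lymphocyte genes 9 were tested, 5 were lower and none was higher (1 without B16-M replicate 2 or without M0-p20 replicate 3), with *Cd79b* at least 93.8-fold and *Lck* 14.5-fold lower in B16-M, whereas *Cd8a*, *Cd2*, *Ms4a1*, *Ebf1*, *Rag1* and *Il7r* were not above background on any array.

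Most of the listed receptors and targets of IL-3 signalling followed the leukemia line, its kinases and Stat5 less so. Of 18 genes 14 were lower in B16-M and 1 was higher (median -2.93), against 29.7% lower and 22.6% higher over all genes tested. *Csf2rb2*, the chain that serves IL-3 alone in the mouse, was at least 1279-fold lower in B16-M. It is a near-identical copy of *Csf2rb*, and signal shared between their probes cannot be told apart. *Il3ra*, the ligand-binding chain, was detected in both lines and 8.30-fold lower in B16-M. *Csf2ra*, the ligand-binding chain for GM-CSF, was the exception, at -0.17, -0.41 and -0.12 in B16-M against -6.80, -5.44, -2.82 and -5.42 in M0-p20, where replicate 2 alone was above background (4.89 ± 0.82, limma adjusted p = 0.00167, and 5.66 without that replicate).

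Downstream, *Jak1* and *Jak2* were 2.22-fold and 2.87-fold lower in B16-M. *Stat5b* lay between 2.31 and 2.62 in B16-M and between 2.19 and 2.38 in M0-p20, and the lines overlapped (0.13, 95% interval -0.22 to 0.48). *Stat5a* overlapped too, with a wide interval (-0.08, -1.31 to 1.16, and 0.54 without B16-M replicate 2). Most of the listed targets of Stat5 were lower in B16-M, by unequal amounts, and *Socs3* had no call. *Cish*, an inhibitor that Stat5 induces, gave 4.11, 5.73, 5.71 and 5.53 in M0-p20 against -2.37, -1.30 and -1.54 in B16-M (-7.01 ± 0.46, limma adjusted p = 7.26e-06), and the kinase *Pim1* gave 5.75, 6.70, 6.45 and 6.20 against -0.39, -0.20 and -0.01 (-6.47 ± 0.25). *Socs1* (-5.23 ± 0.32), *Pim2* (-3.78 ± 0.72) and *Socs2* (-2.25 ± 0.29) were lower in B16-M, and the cytokine *Osm* was detected in M0-p20 alone (at least 616-fold). M0-p20 replicate 0 was lowest of its line for *Cish*, *Socs1*, *Socs3*, *Pim1* and *Pim2*. *Socs3* stood at 0.28 there and at 1.56 to 1.80 on the other 3 arrays, had no call (-0.93 ± 0.38), and differed by -1.29 and passed the threshold without that array. The difference of *Pim2* was -4.49 without it, and the count of 14 lower genes was the same.

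**Figure D2:**
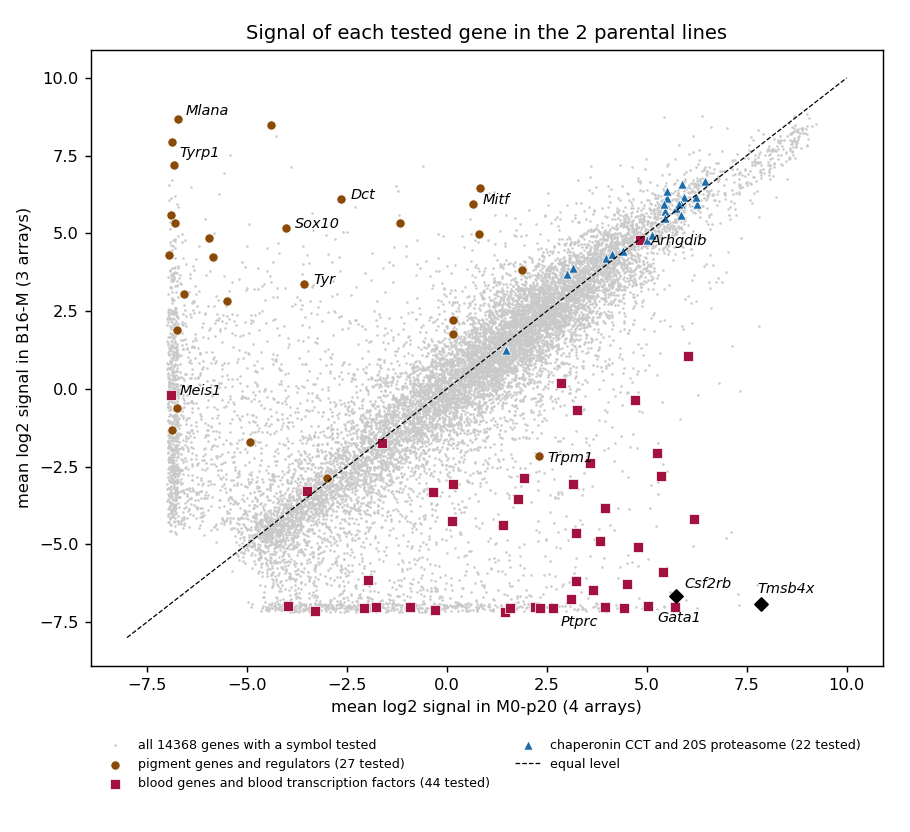
Mean level of each tested gene with a symbol in M0-p20 (horizontal, 4 arrays) and B16-M (vertical, 3 arrays), both as log2 signal relative to the 75th percentile of the array, with the dashed line at equal levels. Brown circles are pigment genes and their regulators, red squares blood genes and blood transcription factors, blue triangles chaperonin and 20S proteasome genes, and black diamonds *Csf2rb* and *Tmsb4x*, and the vertical and horizontal bands near -7 are genes at background in M0-p20 or in B16-M.

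Beyond these lists, 1157 of the 1190 genes detected in B16-M alone and 819 of the 845 detected in M0-p20 alone had no probe above background on any array of the other line, and for 877 and 636 of all such genes the bound was at least 4-fold. The highest bounds below were taken among genes with no probe above background in the other line, with clones, predicted genes and certain gene families passed over. The 10 genes of B16-M with the highest bounds included, beside *Mlana*, *Tyrp1* and *Gpnmb*, the prostaglandin D2 synthase *Ptgds* (7.52, 7.42 and 7.58, at least 4608-fold), the matrix-associated *Aebp1* (at least 3089-fold), the protease *Bace2*, which is known to process Pmel (at least 2381-fold), the mitochondrial *Chchd10* (at least 2267-fold), the carboxypeptidase *Cpe* (at least 1863-fold), *Nckap1* (at least 1787-fold) and the lysosomal *Laptm4b* (at least 1557-fold).

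*Csf2rb*, with a bound of 1583-fold, was passed over, since another of its probes was above background in B16-M. The 10 genes of M0-p20 with the highest bounds under this rule were led by *Tmsb4x*. This gene encodes thymosin beta 4, a small protein that holds actin monomers. It stood at 7.77, 7.97, 7.93 and 7.73 in M0-p20 and at -6.83, -6.90 and -7.04 in B16-M, where its probe was not above background on any array, at least 6900-fold lower. The gene had a single probe on the array. The matrix glycoprotein *Emilin2* (at least 6512-fold), the thrombin receptor *F2r* (at least 4767-fold), the interferon-induced *Ifitm1* (at least 4659-fold), the sphingosine-1-phosphate exporter *Spns2* (at least 2278-fold), *Plac8* (at least 1892-fold), the glycosyltransferase *Galnt6* (at least 1440-fold) and *Syce2*, a meiotic protein (at least 1354-fold), followed with *Nfe2* and *Csf2rb2*.

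Among genes detected in both lines the largest fitted differences toward B16-M were those of *Cited1*, a coactivator known from melanocytes (11.05 ± 0.19), *Sox10*, the small heat shock protein *Cryab* (9.03 ± 0.27), *Dct*, the semaphorin receptor *Plxnb2* (8.46 ± 0.20), the germ cell immunophilin *Fkbp6* (8.21 ± 0.25), the lysosomal *Gpr137b* (8.15 ± 0.45), the glutathione transferase *Gstm2* (7.81 ± 0.23) and the LIM protein *Crip2* (7.80 ± 0.45). *Gpr137b-ps* (7.98 ± 0.42) is a near-identical copy of *Gpr137b* and cannot be told from it. Toward M0-p20 they were, after *Lyl1*, those of the mucin *Muc13* (-8.91 ± 0.29), the immunoproteasome subunit *Psmb9* (-8.73 ± 0.24), the adaptor *Dok2* (-8.65 ± 0.19), the calcium-binding *Rcn3* (-8.44 ± 0.44), the zinc importer *Slc39a4* (-8.42 ± 0.23), the calcium sensor *S100a6* (-8.28 ± 0.46), the GTPase regulator *Arhgap45* (-8.26 ± 0.27), the hypoxia-induced *Ankrd37* (-8.21 ± 0.72, and -8.87 without M0-p20 replicate 0) and the glutathione transferase *Mgst2* (-8.16 ± 0.58). Only called genes whose arrays did not overlap between the lines were ranked here, so that non-overlap was a condition and not a result.

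Many proteins of the cytoskeleton, of signalling and of the cell cycle exist as a form used by blood cells and a relative used broadly, and in part of the pairs listed here the lines differed by form. In 24 such pairs, chosen by gene family with earlier results of these data known, the blood form was lower in B16-M in 20. In 12 of these the broad form was higher there. Over all genes tested 29.7% were lower and 22.6% higher in B16-M, and the counts describe the chosen pairs alone. *Lcp1*, the plastin of leukocytes, was 33.0-fold lower in B16-M while the plastin *Pls3* was at least 251-fold higher (3.25, 3.35 and 3.32 against -6.91 to -6.67). *Fermt3*, the kindlin of blood cells, was at least 161-fold lower and *Fermt2* at least 393-fold higher. *Hcls1*, the blood relative of cortactin, differed by -8.73 ± 0.24 and was above background on 1 of 3 B16-M arrays. Cortactin, *Cttn*, was at least 373-fold higher on its brightest probe, but another probe was above background on 3 of 4 M0-p20 arrays and was brightest when any B16-M array was left out, with differences of 2.07 to 2.42. In the complex that drives actin branching, *Nckap1l* differed by -3.23 ± 0.31 on its brightest probe (-10.30 to -10.26 when a B16-M array was left out and its other probe was brightest) and *Nckap1* was at least 1787-fold higher, and for the activators *Was* and *Wasl* the differences were -6.21 ± 0.17 and 2.05 ± 0.14.

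Other pairs did not mirror each other. *Rac2* was detected in M0-p20 alone while *Rac1* was bright in both lines and had no call (0.41 ± 0.18, 0.50 and past the threshold without M0-p20 replicate 1), and *Coro1c*, *Vav2*, *Elmo2*, *Gmfb*, *Plcg1* and *Cyth1* had no call either. *Pik3ca* (-3.47 ± 0.58), *Prkca* (-2.07 ± 0.17) and *Enah* (-1.01 ± 0.21) were the broad forms that were lower in B16-M. *Evl*, listed as a blood form, was higher in the melanoma line (2.51, 2.38 and 2.55 against -2.90, -3.86, -2.89 and -2.26, 5.46 ± 0.35, and 2.23 on another probe). *Ccnd2*, listed likewise, was higher there too, but it was bright in both lines, so that its label as a blood form rests on the list alone.

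**Figure D3:**
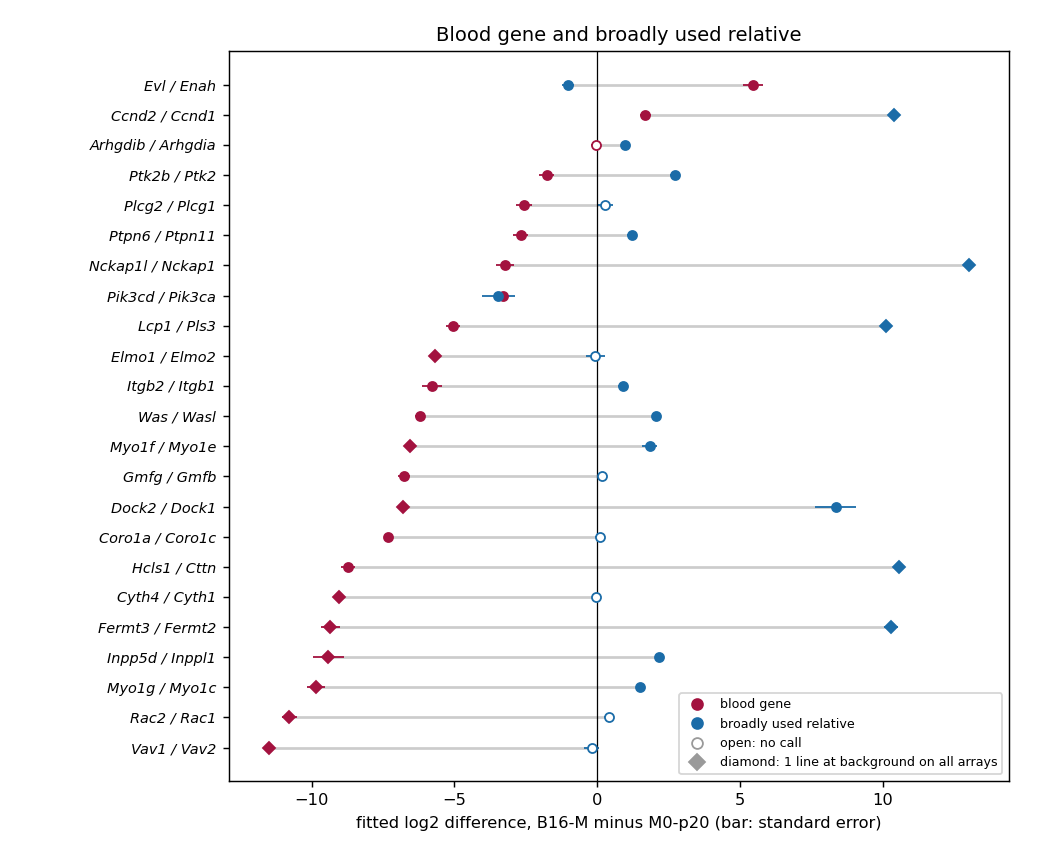
Fitted log2 difference (B16-M minus M0-p20, horizontal) of the blood form (red) and the broadly used relative (blue) of each of 23 pairs, with bars of 1 standard error, open points for genes without a call, and diamonds where 1 line was at background on all arrays, so that the difference there depends on the background. Genes listed as blood forms were called lower in B16-M in 20 pairs, with *Evl*, *Ccnd2* and *Arhgdib* at the top as exceptions, and the pair of *Prkcb*, which was at background in both lines, is not drawn.

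The melanoma line carried genes of adherent cells. Of 26 genes of the cell surface and matrix of attached cells, 22 were tested and 20 were higher in B16-M (median 4.64, or 3.91 with genes at their bound). In the same list 1 was lower, 1 had no call and 1 was detected in M0-p20 alone, and the lowest fitted difference was -4.14. Over all genes tested 22.6% were higher and 29.7% lower in B16-M. *Sparc*, a secreted matrix glycoprotein, stood at 8.08, 8.13 and 8.19 in B16-M against -4.46 to -4.07 in M0-p20 (12.41 ± 0.15), and N-cadherin, *Cdh2*, differed by 7.81 ± 0.45, both above background on 3 of 4 M0-p20 arrays. Of the Hippo pathway, the coactivators *Yap1* (4.71, 4.62 and 4.55, at least 627-fold) and *Wwtr1* (at least 165-fold) were detected in B16-M alone, as were their known targets *Cyr61* (at least 41.5-fold) and *Ctgf* (at least 19.0-fold), while *Ankrd1* was at background in both lines. *Fn1*, fibronectin (at least 37.5-fold), and *Mmp14*, a membrane protease that cuts matrix (at least 52.0-fold), were also detected in B16-M alone. E-cadherin, *Cdh1*, was not above background on any of the 7 arrays.

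Integrins differed in both directions, with 7 of 21 tested higher in B16-M and 10 lower (median -0.41), against 22.6% higher and 29.7% lower over all genes tested. Those of leukocytes and platelets were lower in B16-M, namely *Itgb7* (at least 167-fold), *Itga2b*, *Itgb2* (-5.79 ± 0.35, above background on 2 of 3 B16-M arrays), *Itgal* (-2.95 ± 0.18) and *Itgam* (-1.45 ± 0.37), and so was *Itgb4* (-4.07 ± 0.24), known from epithelia. *Itgb5* (at least 59.7-fold) and *Itga9* (at least 34.0-fold) were detected in B16-M alone, and *Itgav* (1.80 ± 0.27), *Itga6* (1.10 ± 0.19) and *Itgb1* (0.90 ± 0.15) were higher there. *Itga4*, the partner of *Itgb7* and *Itgb1*, overlapped between the lines (0.11, 95% interval -0.28 to 0.50).

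Of 20 tested genes of the actin and septin cytoskeleton 11 were higher and 2 lower in B16-M (median 1.04), against 22.6% higher and 29.7% lower over all genes tested. *Cnn3* (at least 376-fold) and *Cald1* (at least 324-fold), which bind actin in contractile cells, were detected in B16-M alone, and *Vim* (1.79 ± 0.17), *Flna* (1.54 ± 0.15, and 0.41 on another probe) and *Csrp1* (2.41 ± 0.16) were higher. *Tagln2* was the strongest exception, at -0.20, -0.05 and 0.08 in B16-M and 7.0, 7.17, 7.70 and 7.48 in M0-p20 (-7.39 ± 0.21, limma adjusted p = 5.43e-08).

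**Figure D4:**
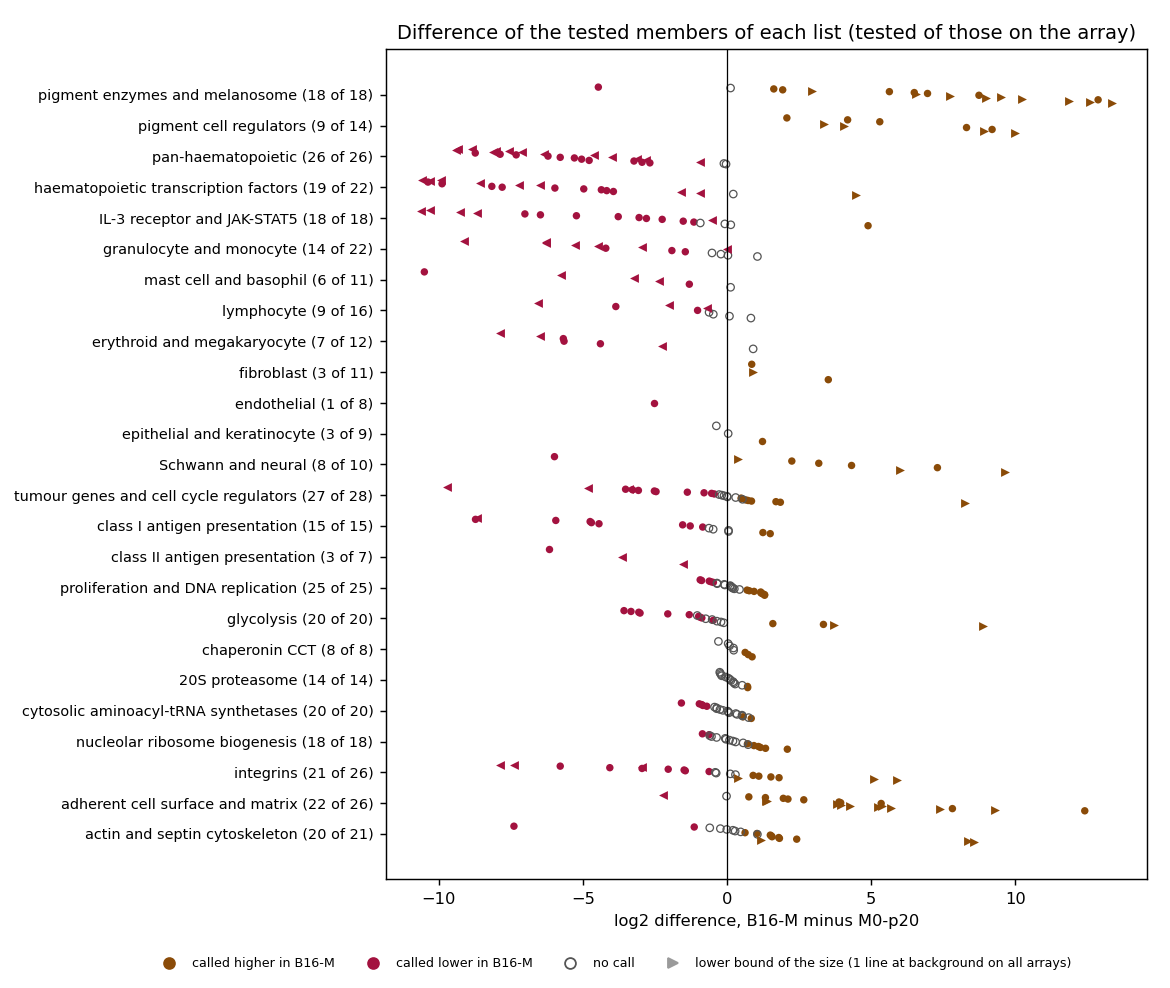
Log2 difference (B16-M minus M0-p20, horizontal) of every tested member of 25 gene lists, with the number tested and on the array beside each name. Brown points were called higher in B16-M, red points lower and open points had no call, and triangles stand at the lower bound of a difference where 1 line was at background on all arrays. Lineage lists spread over several units to either side, and the chaperonin and 20S proteasome lists lie within 1 unit of 0.

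The median size of a difference was 0.22 for the 20S proteasome, 0.26 for the chaperonin CCT, 0.48 for cytosolic aminoacyl-tRNA synthetases and 0.61 for nucleolar ribosome biogenesis, programmes used by every dividing cell, against 0.78 over all genes tested. The counts of these lists stand beside 22.6% higher and 29.7% lower in B16-M over all genes tested. Of genes detected in both lines, 5194 had no call, for 4467 the 95% interval of the difference lay within 1 unit of 0, a doubling, and for 555 within 0.5. All 14 subunits of the 20S proteasome were detected in both lines, with a median of 0.11, 12 without a call, and *Psmb6* (0.71 ± 0.17) the larger of the 2 that were higher in B16-M. All 8 subunits of the chaperonin CCT were detected in both (median 0.23), 3 of them higher in B16-M, with *Cct7* highest (0.87 ± 0.19). The proteasome count fell to 1 without any array but M0-p20 replicate 1, and the chaperonin count fell to 1 without B16-M replicate 0 or 2 or M0-p20 replicate 2 or 3. Of 20 cytosolic aminoacyl-tRNA synthetases 2 were higher and 5 lower (median -0.07), with *Hars* (-1.58 ± 0.20) and *Farsa* (-0.96 ± 0.18) lower and *Farsb* (0.84 ± 0.20) higher in B16-M, although *Farsa* and *Farsb* encode the chains of a single enzyme. Without B16-M replicate 1 the lower count was 2, and without B16-M replicate 0 or M0-p20 replicate 2 or 3 the higher count was 1. Of 18 genes of ribosome assembly in the nucleolus 6 were higher and 2 lower (median 0.25), with the RNA polymerase I subunit *Polr1a* 4.26-fold higher in B16-M. The higher count was 2 without B16-M replicate 0 and 3 without M0-p20 replicate 2, and the lower count was 1 without B16-M replicate 1 or 2 or M0-p20 replicate 2.

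The 10 brightest genes whose interval lay within 0.5 were *Ppia*, *Tuba1b*, *Actb*, *Atp5l*, *Emd*, *Sod1*, *Hspa8*, *Gnb2*, *Hnrnpa3* and *Eif1*. *Actb*, beta actin, stood at 8.54, 8.45 and 8.65 in B16-M and 8.60, 8.67, 8.63 and 8.33 in M0-p20, and the lines overlapped for the others as well, except for *Eif1* (6.64 to 6.67 against 6.41 to 6.64). The differences ran from -0.15 for *Ppia* to 0.12 for *Eif1*, but after quantile normalization those of *Actb*, *Emd* and *Sod1* turned to 0.51, 0.47 and 0.42 and were called, and those of *Tuba1b*, *Atp5l*, *Gnb2* and *Eif1* were called higher in B16-M, so that a shared level holds relative to the 75th percentile.

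Genes of proliferation differed in both directions. All 25 were detected in both lines, 9 were higher in B16-M, 5 lower and 11 had no call (median 0.17), and the median size of their differences was 0.56 against 0.78 over all genes tested, with 52.3% of all genes called. Those of DNA replication included *Pcna*, the sliding clamp (5.86, 5.60 and 5.99 in B16-M against 4.60, 4.93, 4.59 and 4.47, 1.17 ± 0.18), the helicase subunit *Mcm2* (1.24 ± 0.23), the loading factor *Cdc6* (1.20 ± 0.26) and *E2f1*, which drives entry into S phase (1.30 ± 0.20), all higher in B16-M. The helicase subunits *Mcm3*, *Mcm4*, *Mcm5*, *Mcm6* and *Mcm7* had no call (-0.34 to 0.20). Of mitosis, *Mki67* (-0.88 ± 0.18) and *Ccnb2* (-0.93 ± 0.17) were lower in B16-M, *Cdk1* was higher (1.17 ± 0.26) and *Plk1* had no call (0.16 ± 0.16). The count of lower genes was 3 when any array but M0-p20 replicate 0 was left out.

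Regulators of the G1 phase separated the lines. The D cyclins start the cycle, and *Ccnd1* was detected in B16-M alone (4.10, 3.33 and 3.31 against -6.88 to -6.76, at least 304-fold), *Ccnd2* in both and 3.24-fold higher in B16-M (7.28, 7.0 and 7.41 against 5.68, 5.78, 5.43 and 5.24), and *Ccnd3* at the same level in both (6.36 to 6.54 against 6.04 to 6.73, 95% interval of the difference -0.48 to 0.48). Of their kinases *Cdk4* had no call (0.30 ± 0.16) and *Cdk6* was 8.44-fold lower in B16-M. The inhibitors *Cdkn2a*, at -7.07, -7.31 and -7.07, and *Cdkn2b*, at -7.01, -6.99 and -7.12, were not above background on any B16-M array, and they were above it on all M0-p20 arrays, at -2.22 to -1.08 and -0.89 to 0.35 (at least 10.5-fold and 28.6-fold lower in B16-M). *Mtap*, which lies beside them on the chromosome, was detected on all 7 arrays, at 4.27 to 4.52 in B16-M and 3.67 to 3.96 in M0-p20. Copy number was not analysed here. The retinoblastoma gene *Rb1* was 9.69-fold lower in B16-M and *Cdkn1a*, the p21 inhibitor, 5.52-fold lower.

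Of 27 tested tumour genes and cell cycle regulators 8 were higher and 12 lower in B16-M (median -0.18), against 22.6% higher and 29.7% lower over all genes tested. *Mycn* stood at 4.74, 4.93, 4.85 and 4.73 in M0-p20 and at background in B16-M (at least 840-fold), and *Myc* was 5.75-fold lower in B16-M and detected in both. The survival genes *Bcl2* (-3.52 ± 0.18) and *Bcl2l1* (-1.38 ± 0.19) were lower in B16-M. *Nf1*, an inhibitor of Ras, was 3.60-fold higher there. *Cdkn1b*, an inhibitor of the cell cycle, had no call (0.01, 95% interval -0.60 to 0.62), and *Flt3*, a receptor often active in human myeloid leukemia, was not above background on any array.

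The machinery that presents peptides on MHC class I was weaker in the melanoma line at its immune-inducible steps. Of 15 genes 9 were lower in B16-M, 2 were higher and 4 had no call (median -1.28), against 29.7% lower and 22.6% higher over all genes tested. *Psmb8*, a subunit of the immunoproteasome, was not above background in B16-M (-7.02, -6.97 and -7.12) and stood at 3.21, 4.40, 3.96 and 3.55 in M0-p20, at least 411-fold lower, and its partner *Psmb9* was 423-fold lower. The peptide transporter genes *Tap2* (-1.96, -1.54 and -1.73 against 3.93, 4.41, 4.27 and 4.19) and *Tap1* were 61.5-fold and 26.9-fold lower, the transactivator *Nlrc5*, which was above background on 1 of 3 B16-M arrays, 26.1-fold, the heavy chain *H2-K1* 21.8-fold and *H2-D1* 2.91-fold. The other bright probes of *Tap2*, *Nlrc5* and *H2-K1* gave smaller log2 differences of -2.78, -1.98 and -0.64. MHC sequences vary between mouse strains, and the fit of these probes to the alleles of the lines was not tested. The regulator *Irf1* had no call (0.05 ± 0.17), and the chaperones *Calr* and *Pdia3*, which every cell uses in the endoplasmic reticulum, were 2.37-fold and 2.82-fold higher in B16-M. Of MHC class II, *H2-DMb1* (-6.16 ± 0.27) and *H2-DMa* (at least 12.5-fold) were lower in B16-M, and *H2-Aa* and *H2-Eb1* were at background in both lines.

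Glycolysis was measured by 20 genes, of which 10 were lower and 4 higher in B16-M (median -0.81), against 29.7% lower and 22.6% higher over all genes tested. The glucose transporter *Slc2a1* gave 2.15, 1.79 and 2.10 in B16-M against 4.17, 6.19, 6.11 and 5.89 in M0-p20 (-3.58 ± 0.49, limma adjusted p = 0.000552), and *Pfkl* (-3.06 ± 0.41) and *Pfkp* (-3.02 ± 0.41), of an early committed step, were lower too. *Hk1* differed by -3.33 ± 0.28 on its brightest probe and by 0.37 on another. The enzymes also differed by form. *Ldhb*, the lactate dehydrogenase chain of heart muscle, was detected in B16-M alone (4.29, 4.02 and 4.34 against -6.85 to -6.74, at least 472-fold), as was *Eno2*, the enolase of neurons (at least 13.2-fold), and *Aldoc*, the aldolase of brain, was 10.1-fold higher there. *Gapdh* (-0.21 ± 0.25) and *Eno1* (-0.35 ± 0.26) had no call. M0-p20 replicate 0 had the lowest summed level of the list in its line (10.77 against 11.41 to 11.77 on the other 3 arrays, and 10.50 to 10.76 in B16-M). Without it 14 genes were lower in B16-M, *Eno1* among them, while without B16-M replicate 1 the count was 5 and without M0-p20 replicate 2 it was 6.

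Markers of other tissues were mostly at background. Of endothelial genes 6 of 8 were not above background in either line, *Cdh5*, *Kdr* and *Tek* among them, of fibroblast genes 7 of 11, with *Col3a1*, *Dcn* and *Pdgfrb*, and of epithelial genes 5 of 9, with *Epcam*, *Cdh1* and *Krt8* (no epithelial gene was called lower in B16-M, and 1 was without B16-M replicate 0 or 2). All 3 tested fibroblast genes were higher in B16-M, namely *Acta2* (1.81-fold, and -8.28 in log2 on another probe), *Col1a2* (11.4-fold) and *Pdgfra* (at least 1.87-fold). *Trp63* was 2.33-fold higher and *Pecam1* 5.77-fold lower in B16-M, both detected in both lines. The summed level of the fibroblast list ran from 4.57 to 4.84 in B16-M and from 3.22 to 4.43 in M0-p20, that of the endothelial list from -2.73 to -2.52 and from -1.37 to -0.99, and that of the epithelial list from 3.18 to 3.36 and from 1.89 to 2.41. The fibroblast and epithelial sums lie close to the levels of *Acta2* (4.53 to 4.80 in B16-M) and *Trp63* (3.15 to 3.34) alone. Genes of Schwann cells and neurons, which share the neural crest with melanocytes, were the exception. Of 8 tested 7 were higher in B16-M, against 22.6% higher over all genes tested. *S100b* stood at 4.84, 4.84 and 5.24 and was at background in M0-p20 (at least 797-fold), *Nes* differed by 7.29 ± 0.29, and *Ncam1* was detected in B16-M alone (at least 64.5-fold). *Mbp* was called lower on its brightest probe (-5.99 ± 0.22), but its 3 bright probes ran from -5.99 to 5.12, and no direction is given.

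The lines that descend from the 2 parental lines kept the division. Of the 1190 genes detected in B16-M alone, 1059 were detected on all arrays of B16-D (89.0%), 1108 of B16-D-733 (93.1%), 1140 of B16-D-735 (95.8%) and 1123 of B16-D-739 (94.4%), but 15 on all arrays of J365-p20 (1.26%), where 1096 were on none. Of the 845 genes detected in M0-p20 alone, 774 were detected on all J365-p20 arrays (91.6%) and 14 to 49 on all arrays of a melanoma line. On B16-D replicate 2 90.3% of spots were well above background, where all others in the series had 46.0% to 55.8%, and the number of M0-p20 genes that no B16-D array detected was 142 with it and 726 without it.

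*Mitf* ran from 5.47 to 6.66 over the 14 arrays of the dormancy-derived melanoma lines, around its level in B16-M. In J365-p20 it ran from 1.36 to 2.63, above all M0-p20 arrays, a difference that was not tested. *Tyr* ran from 2.56 to 3.53 over the derived melanoma arrays and from -3.73 to -3.04 in J365-p20, and *Dct* from 5.85 to 6.65 and from -3.42 to -1.18. *Ptprc* was not above background on any array of the melanoma lines and stood at 2.82 to 3.08 in J365-p20. *Csf2rb* lay at 5.20 to 5.89 in J365-p20 and was not above background in the melanoma lines except on 1 array of B16-D (-3.40) on its brightest probe.

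**Figure D5:**
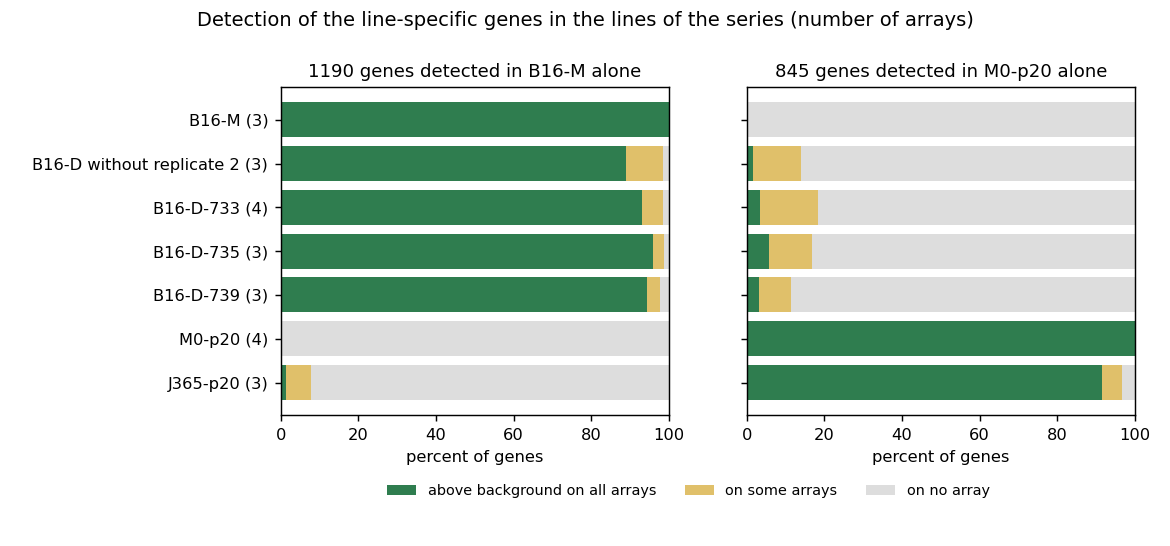
Share of the 1190 genes detected in B16-M alone (left) and of the 845 genes detected in M0-p20 alone (right) that were well above background on all arrays (green), on some arrays (yellow) or on no array (grey) of each line of the series, with the number of arrays in brackets and B16-D without its replicate 2. The melanoma lines hold 89.0% to 95.8% of the first set on all arrays and J365-p20 holds 91.6% of the second.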

How the data were processed

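Total RNA (50 ng per the labels) was labelled with 1 colour and hybridised to mouse arrays, 8 per slide on 3 slides. The deposited values are the processed signal intensity of each spot from Agilent Feature Extraction 10.7.3.1 as the authors made it, and the deposited series table holds the same intensities. No columns of the authors' own comparisons were used. Control spots and 753 outlier spots on the 7 arrays were left out. Here log2 of the deposited intensity minus the 75th percentile of each array was taken, spots of a probe were averaged, and a gene was read from its brightest probe by mean level on the 7 arrays. Of 22907 gene symbols 7898 had several probes. Gene names are RefSeq symbols joined by the accession that the array gives for each probe, with *Ctgf* and *Cyr61* there under their current symbols.

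Genes well above background on at least 3 of 7 arrays were fitted with limma 3.58.1 in R 4.3.3 as B16-M minus M0-p20, with Benjamini-Hochberg adjustment at 0.05. On simulated data of the same size, with 200 genes changed, the fit recovered 0% of changes of 0.5 on the log2 scale, 12% of changes of 1, 66% of 2 and 92% of 4. Far more genes differ between the real lines, so that these shares do not give the power of the comparison itself. The rest was done with scipy 1.17.1, pandas 2.3.3 and numpy 2.4.6 under Python 3.11.15. The summed level of a list is the log2 of the sum of its scaled intensities. Genes are named by list and by rule. The rules took the 10 largest differences in each direction among called genes measured in both lines whose arrays did not overlap. They also took the 10 highest bounds in each line among genes with no probe above background in the other line, and the 10 brightest shared genes. Names of clones, predicted genes and certain gene families were passed over. *Tmsb10* was chosen after its values were seen. Lists and members were chosen with earlier results of these data known. Normexp correction, tried with quantile normalization, other filters, the mean of all probes, blocks and left-out arrays, used the median signal with an offset of 50. Replicate numbers were not used as pairs, since same-numbered arrays did not deviate together. Motifs were searched in 250 bases before each start in the RefSeq table of GRCm38.p6.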

Additional observations from a re-analysis of the deposited data

Results flagged for a closer look

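Of 257 genes checked for this, 25 had, among the 4 arrays of M0-p20, a highest or lowest array whose gap to the nearest array took most of the range of the line (above Dixon's critical value for 4 arrays), where chance gives about 1 in 20. In 16 of them the array was M0-p20 replicate 0. It was lowest for *Arhgap45* (4.87), *Cish* (4.11), *Gstm2* (-4.07), *Itgav* (1.13), *Mgst2* (3.78), *Pfkp* (3.78), *Pim2* (-1.24), *Slc2a1* (4.17), *Socs1* (1.76) and *Socs3* (0.28), and highest for *Cdc6* (1.22), *Crip2* (0.0342), *Itga4* (3.34), *Mcm2* (3.33) and *Polr1a* (2.46), all log2 levels. It was also highest for *Erbb3* (-5.87), which was not above background there. Replicate 1 stood apart for *Csf2rb* (6.08), *Gpr137b* (-3.62) and, at background, *Cebpa* (-5.48), *Slc45a2* (-6.77) and *Tek* (-6.76), replicate 3 for *Myo5a* (1.32) and, at background, *Cald1* (-6.02) and *Mlph* (-6.12), and replicate 2 for *Cdh5* (-5.53), at background. The part of culture, RNA or array in these values was not tested.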

How the results depend on the processing

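Of 12757 genes called (5523 higher and 7234 lower in B16-M), leaving out 1 array gave 11102 to 12876 in all, 4868 to 5693 higher and 6095 to 7312 lower. Where genes had to be above background on all 7 arrays, 8310 were called, 3497 higher and 4813 lower, since genes of a single line cannot pass. With a change of at least 4-fold required, 5312 remained, 2440 higher and 2872 lower. Genes detected in B16-M alone numbered 753 when any positive and significant signal counted, and those of M0-p20 alone 1662 when 1 array sufficed. The higher share of calls ran from 41.4% to 45.9% and the median difference from -0.20 to -0.14 under quantile normalization. Quantile normalization turned *Actb* (0.51), *Emd* (0.47) and *Sod1* (0.42), and the mean of all probes turned *Mbp* (0.75) and *Trpm1* (4.64). In the simulated data, with 200 genes changed, most changes of 1 or less on the log2 scale were missed. With 52.3% of genes called here larger unadjusted p-values passed, so that those shares do not carry over. Smaller differences were called here, such as those of *Mtap* (0.50) and *Mdm2* (-0.54).

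The replicate numbers do not pair the arrays (same-numbered arrays had correlations of their deviations of -0.25, -0.61 and -0.55). A fit with the replicate block gave 8222 calls, 3775 higher and 4447 lower. Arrays on the same slide had correlations of their deviations of 0.15 to 0.57, and with the slide as a block 14511 genes were called.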

Other observations

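Thymosin beta 10, encoded by *Tmsb10*, is a relative of thymosin beta 4 and was bright in both lines, at 5.46, 5.58 and 6.04 in B16-M and 4.15, 4.51, 4.29 and 4.04 in M0-p20 (1.45 ± 0.20, limma adjusted p = 0.000635). The lines did not overlap, and the direction was opposite to that of *Tmsb4x*, whose single probe was not above background on any B16-M array. *Tmsb10* was chosen after its values were seen, and whether the *Tmsb4x* probe reads the transcript of the melanoma line was not tested.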
